A study of Mus musculus with 2 samples.

Results

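ISG15 conjugation is a short enzyme cascade, read here from the genes Isg15, Uba7, Ube2l6, Herc6 and Usp18 in bone marrow LT-HSCs, the long-term repopulating stem cells of the blood. These 5 genes were chosen by name. The arrays measured 4 of them, of 24203 genes in all, through 11 of 44170 transcript rows. Usp18 was not analysed here. Uba7 and Herc6 stand in the files under the older symbols Ube1l and Herc5, with the gene IDs of Uba7 (74153) and Herc6 (67138).

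The LT-HSCs came from C57BL/6 mice aged 8 weeks, by sorting of bone marrow. The knockout sample is from animals without the circular RNA cia-cGAS, and the wild-type sample from animals that have it. Each genotype had 1 single-colour NimbleGen array, so no difference has a replicate check and none was tested. The labels give neither the design of the knockout allele nor the sort markers, nor how many animals went into a sample.

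ISG15 is a ubiquitin-like protein, built of a pair of ubiquitin-like domains, that type I interferon induces in most cells. It is joined to lysines of other proteins in 3 steps: UBA7 activates it, UBE2L6 carries it, and in mice HERC6 is the main ligase, a role that HERC5 has in humans. The protease USP18 removes it again and, apart from that activity, binds the interferon receptor chain IFNAR2 and restrains signalling. The genes of all 5 proteins are known as interferon-inducible, and blood stem cells respond to interferon.

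All values are RMA intensities on the log2 scale as deposited, and every difference is knockout minus wild type. RMA equalises the distributions of arrays, so a difference is relative to the other genes. Rows of sensory receptor genes (olfactory, vomeronasal and taste, 1031 rows) served as background, and their 95th percentile on an array is called its floor. It lay at 8.97 in the knockout and 9.11 in the wild type. Where a gene had several rows, the row with the highest mean over both arrays stood for it. Of the 24203 genes, 10859 were above the floor on either array and 9245 on both. A list gene above the floor on 1 array is given as at least the fold against the floor of the other. Rows of the same gene, above the floor on both arrays, differed from each other with a pooled SD of 0.37 over 2899 genes. This SD covers disagreement between probes on the same RNA and holds no spread between animals. The label LT-HSC was set against 15 measured genes known to mark these cells, of which 10 were above the floor on either array. Kit and Ly6a were above it on both, while Procr and Slamf1, defining surface markers, were below it on both. The 10 detected markers summed to 31587 in the knockout and 27998 in the wild type in linear intensity. The brightest of them, Ly6a, read 13.37 in the knockout and 12.97 in the wild type. Tal1 was at least 2.20-fold lower, though a further detected row differed by only -0.52. Cd48 and Cd34, surface proteins that mouse LT-HSCs are known to lack or hold at low level, were above the floor on both arrays. Cd48 read 11.34 in the knockout and 11.45 in the wild type, and Cd34 11.73 in the knockout and 12.24 in the wild type. With Cd48 and Cd34 counted, 12 genes of the LT-HSC list were detected, 5 with a positive and 7 with a negative difference. Genes of mature marrow cells were also high on both arrays. The 19 measured neutrophil genes summed to 353881 in the knockout and 254646 in the wild type. Monocyte and macrophage genes and erythroid genes also summed to more than the 10 detected LT-HSC markers on each array. B lineage, plasmacytoid dendritic cell, and T and NK genes summed to less. The lists differ in length and probes, and the LT-HSC sum is over detected genes only, so the sums do not rank cell types. Signal of mature cell genes on both arrays, with Procr and Slamf1 below both floors, goes against a pure LT-HSC population. LT-HSC is used here as the name of the samples.

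The upstream sequence of Isg15 is shown first because it holds the motif for which interferon-induced genes are known. The sequences run from 250 bases before the annotated start to 50 bases from it, 5′ to 3′ on the strand of the gene. They are RefSeq promoters of the GRCm38.p6 build. Capitals mark every match, on either strand, to the core of the interferon-stimulated response element (ISRE), which is GAAA, any 2 bases and GAAA again, or to the shorter IRF element, AANNGAAA. The windows of Isg15 (chr4:156200769-156201068, minus strand), Uba7 (chr9:107975317-107975616, plus strand) and Herc6 (chr6:57580742-57581041, plus strand) read as follows.
Isg15: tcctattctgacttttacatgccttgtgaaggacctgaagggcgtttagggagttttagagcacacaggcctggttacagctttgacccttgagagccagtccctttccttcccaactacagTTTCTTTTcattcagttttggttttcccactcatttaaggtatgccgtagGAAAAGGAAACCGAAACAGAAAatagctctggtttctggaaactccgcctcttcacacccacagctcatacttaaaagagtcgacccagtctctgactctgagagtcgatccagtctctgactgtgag
Uba7: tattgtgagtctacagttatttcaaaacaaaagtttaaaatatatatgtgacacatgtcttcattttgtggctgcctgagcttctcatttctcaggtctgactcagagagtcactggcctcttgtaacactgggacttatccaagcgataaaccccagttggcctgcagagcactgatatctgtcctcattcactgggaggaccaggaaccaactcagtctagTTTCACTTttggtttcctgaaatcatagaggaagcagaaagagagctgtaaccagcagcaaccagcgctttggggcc
Herc6: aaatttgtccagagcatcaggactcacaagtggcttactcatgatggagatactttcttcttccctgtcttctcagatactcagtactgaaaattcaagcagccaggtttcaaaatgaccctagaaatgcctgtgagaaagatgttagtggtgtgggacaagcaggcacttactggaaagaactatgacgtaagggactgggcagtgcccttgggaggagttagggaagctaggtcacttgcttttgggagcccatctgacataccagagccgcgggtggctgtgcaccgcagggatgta

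The Isg15 window held 3 ISRE cores that overlap in 1 run, the first starting at base -78 and the last ending at base -57 from the start. Of 32851 promoters, 3.44% held at least 1 ISRE core and 0.0152%, 5 promoters, held 3 or more. Each core contains an IRF element by construction, and Isg15 had 1 further IRF element on the other strand, at -128 to -121. Uba7 had no ISRE core and 1 IRF element, at -27 to -20, a motif held by 23.9% of promoters. The windows of Herc6 and Ube2l6 matched neither motif. A missing match says only that these letters are not within this window.

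Transcripts of the modifier and of the ligase were several-fold higher in the knockout sample, while those of the activating and the carrier enzyme differed by less than 2-fold. Isg15 was 7.32-fold and Herc6 15.5-fold higher, against 1.89-fold for Uba7 and 1.82-fold for Ube2l6. Thus 2 of the 4 genes measured were at least 2-fold higher and 0 at least 2-fold lower, where 5.53% of genes above the floor on either array were at least 2-fold higher and 4.06% at least 2-fold lower. Isg15 and Herc6 also passed 3-fold and 4-fold, which 2.59% and 1.56% of these genes did, and all 4 members passed 1.5-fold, as did 11.6% of genes. The median difference was 1.89 over the 4 members and -0.02 over all these genes. Of the 11 rows, 9 were above the floor on both arrays and 2 on neither, and 6 of the 9 were at least 2-fold higher and 0 lower. Among all gene rows above the floor on either array, 6.11% were at least 2-fold higher and 3.81% lower. All 9 detected rows had a positive difference, where 50.4% of gene rows above the floor on either array did. The 2 rows below both floors were positive too, but lie in the background and outside that share. The 11 rows come from 4 genes, 5 of them from Herc6, on the same RNA, so they are not separate results.

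**Figure D1:**
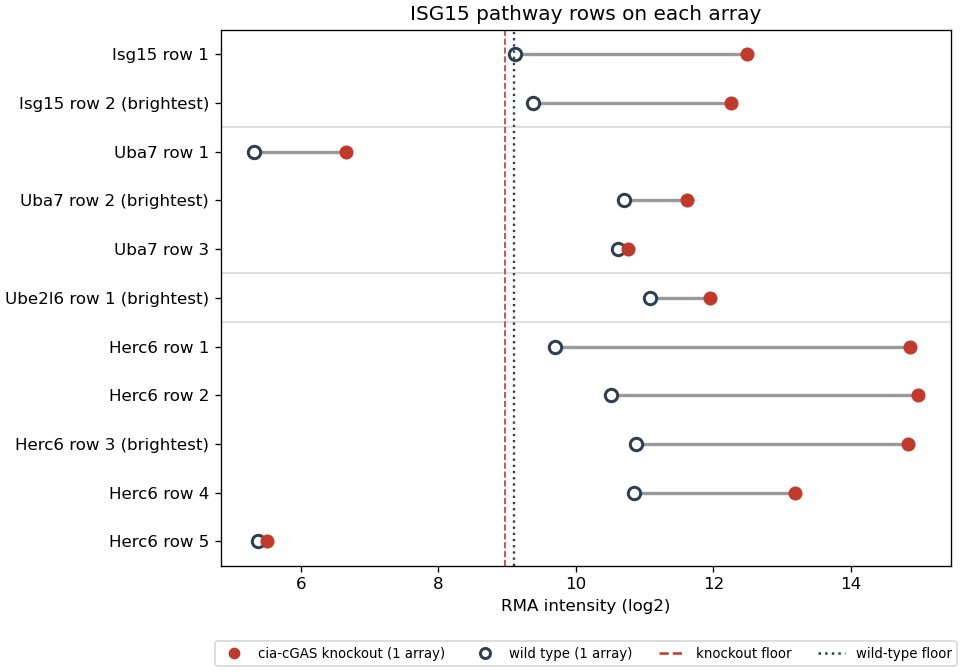
RMA intensity on the log2 scale (horizontal) of every row of the 4 measured members, with the knockout array as filled red points, the wild-type array as open points, and the 2 floors as vertical lines. The Herc6 rows reach 14.97 in the knockout, the wild-type points of Isg15 sit just above the floor, and row 1 of Uba7 and row 5 of Herc6 lie below both floors.

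Isg15, which encodes the modifier itself, was read by 2 rows on chromosome 4 (gene ID 100038882). The row that spans chr4:155573563-155574905 on the MM9 assembly read 12.25 in the knockout and 9.38 in the wild type, a difference of 2.87. In linear units this is 4872 in the knockout sample and 666 in the wild-type sample. The other row, chr4:155573574-155574894, stands for 4 database transcripts and read 12.49 in the knockout and 9.12 in the wild type, a difference of 3.38 or 10.4-fold. Both rows placed the knockout more than 3 log2 units above its floor. The wild-type values lay only 0.27 and 0.01 above the wild-type floor, so the fold rests on a value near that floor. By this rule the wild-type level was barely detected. The floor is a cautious one, since the random control probes read 5.20 on the wild-type array. With the floor at the 99th percentile of receptor rows, Isg15 was detected in the knockout alone and the difference became a bound of 2.07. Isg15 ranked 53rd of 9245 genes above the floor on both arrays, within the highest 0.573%, where 5.38% of these genes were at least 2-fold higher. Of 1275 other genes with a mean level within 0.25 of its own, 5 had as high a difference.

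Uba7, the activating enzyme dedicated to ISG15, had 3 rows on chromosome 9 that did not give 1 value. The brightest spans the whole gene at chr9:107877897-107886389 (MM9) and read 11.62 in the knockout and 10.71 in the wild type, a difference of 0.92. The row over the last 1000 bases of the gene, chr9:107885388-107886387, read 10.76 in the knockout and 10.61 in the wild type, a difference of 0.14. This is 1.10-fold, less than the SD of 0.37 between rows of a gene. The row inside the gene, chr9:107882069-107885116, was below both floors, at 6.66 in the knockout and 5.32 in the wild type. With the 2 detected rows averaged, an alternative chosen after seeing the data, the difference was 0.53. Both detected rows overlap rows of D330022A01Rik by 771 to 963 bases, and those were below both floors. Uba7 ranked 562nd of 9245 by its brightest row, and 93 of 1097 genes of like level had as high a difference.

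Ube2l6, the carrier enzyme that takes ISG15 from UBA7, was read by a single row, chr2:84639016-84650160 (MM9, gene ID 56791). It read 11.95 in the knockout and 11.08 in the wild type, both more than 1.9 log2 units above their floors. The difference of 0.87 has no second row to set beside it. It ranked 611th of 9245 genes, with 6.61% of them as high or higher. The differences of Ube2l6 and Uba7 lay 0.05 apart, and each was about 2 log2 units under that of Isg15 (1.96 for Uba7 and 2.01 for Ube2l6).

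Herc6, the ligase, gave the largest difference of the 4 genes by the brightest row, and the widest spread between detected rows. Its order with Isg15 rests on the row: the dimmest detected rows differed by 2.34 for Herc6 and 3.38 for Isg15, and the means of all rows by 3.21 for Herc6 and 3.12 for Isg15. Its brightest row lies within the gene at chr6:57552904-57576104 (MM9) and read 14.83 in the knockout and 10.87 in the wild type, a difference of 3.96. The rows at chr6:57531062-57613290 and chr6:57531062-57602163 read 14.86 and 14.97 in the knockout, against 9.69 and 10.50 in the wild type. These are differences of 5.16 and 4.47, or 35.8-fold and 22.2-fold. The row of the predicted transcript that covers the whole gene, chr6:57530993-57615130, read 13.19 in the knockout and 10.84 in the wild type, a difference of 2.34 or 5.07-fold. All 4 detected rows were thus at least 5-fold higher, and their differences had an SD of 1.20, against 0.37 over genes in general. In the knockout, 3 of these rows lay only 0.87 to 1.01 below the highest value on the array, 15.84, and saturation was not tested.

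The fifth Herc6 row was below both floors, at 5.50 in the knockout and 5.37 in the wild type. It is annotated from -95.9 kb to +45.1 kb relative to the first base of the other rows, and so spans the neighbouring gene Ppm1k as well. By its brightest row Herc6 ranked 11th of 9245 genes, the highest 0.119%. Of 456 genes of like level, 2 had as high a difference.

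**Figure D2:**
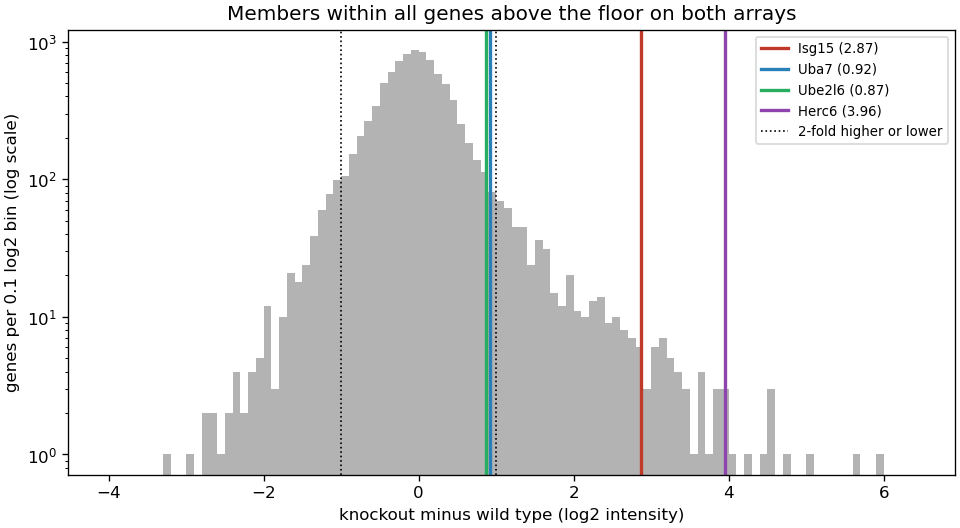
Number of genes (vertical, log scale) by difference in log2 intensity, knockout minus wild type (horizontal), for the 9245 genes above the floor on both arrays, with the 4 members as coloured lines and dotted lines at 2-fold. Isg15 at 2.87 and Herc6 at 3.96 lie in the thin upper tail, whereas Ube2l6 at 0.87 and Uba7 at 0.92 lie just inside the 2-fold line.

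The genes nearest to each member in the ranking of differences were looked up, with likeness taken as the gap between the log2 differences over the 2 arrays. Above Herc6 stood the p200 gene Ifi204 (4.29) and the helicase gene Ddx60 (4.01), and below it the inflammatory caspase gene Casp4 (3.95) and Ms4a4c (3.94). Isg15 lay between Pilra (2.89) and Il1b (2.88) above, and the interferon-induced gene Xaf1 (2.87) and Jchain (2.84) below. Near Uba7 stood Gm3150, Gramd3 and Gapvd1, each within 0.0031 of its difference. Near Ube2l6 stood Myo18b, Serpina3h and Prdx5, each within 0.0020. Near 0.9 the ranking is dense, so such closeness is common there.

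By their brightest rows the enzymes stood at or near the upper end of their families. Of 6 other detected genes of activating enzymes, none was as high as Uba7 by that row. The dimmer detected row of Uba7, at 0.14, lay below Nae1, and a row of Atg7 reached 0.90. Nae1 had the highest difference among them, 0.34, Uba1, the main ubiquitin-activating enzyme, differed by -0.29, and Uba6 was below both floors. Sae1, a subunit of another activating enzyme, was 2.41-fold lower, though a further detected row differed by only -0.45. Among 27 other detected E2 genes, 0 were at least 2-fold higher or lower, and the median was 0.11. Of all detected genes 5.53% were higher and 4.06% lower, so this count does not set the E2 family apart. Ube2q2, at 0.94, was the single one above Ube2l6. Ube2l3, the close relative of Ube2l6 that carries ubiquitin, read 11.97 in the knockout and 11.79 in the wild type, a difference of 0.18.

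The Herc family, to which the ligase belongs, had positive differences in its 3 other detected members, a small number of genes. Herc4 read 13.37 in the knockout and 12.28 in the wild type, 2.13-fold higher, with 4 rows between 0.88 and 1.30. Herc3 was detected in the knockout alone, at least 2.76-fold higher, with detected rows at 1.63 and 1.75. Herc1 differed by 0.62, and Herc2 was below both floors. Thus 2 of the 3 detected genes were at least 2-fold higher, where 5.53% of all detected genes were. With the rows averaged for each gene, 1 of these genes in place of 2 passed 2-fold. Trim25, whose product is another reported ISG15 ligase, differed by 0.35, and Arih1, also reported as one, by 0.07.

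Proteases that have been reported to act on ISG15 besides USP18 did not reach 2-fold in either direction. Of 6 such genes, 4 were above the floor on either array, with differences from -0.29 for Usp14 to 0.31 for Usp21. Over the 48 measured genes of the wider Usp family, 31 were detected, with a median of -0.10. In this family 2 were at least 2-fold higher and 1 lower, shares near the 5.53% higher and 4.06% lower of all detected genes, so the counts set the family apart in neither direction. Usp25 was 2.44-fold and Usp9x 2.10-fold higher. Usp7, whose product stabilises the p53 regulator MDM2, was 2.45-fold lower, though a further detected row differed by only -0.05.

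**Figure D3:**
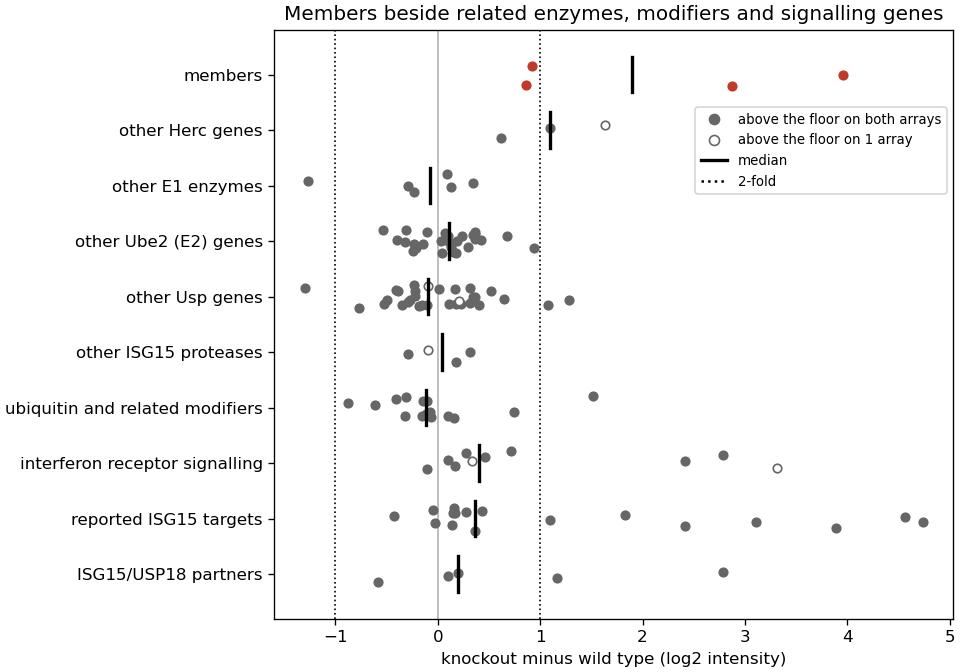
Difference in log2 intensity, knockout minus wild type (horizontal), of each detected gene of the 4 members (red) and of related gene lists (grey), with open points for genes above the floor on 1 array, drawn at their measured difference, black bars at the median of each list and dotted lines at 2-fold. The E1, E2, Usp and modifier lists centre near 0, with medians from -0.11 to 0.11, and the members lie at 0.87 to 3.96. Medians are higher for other Herc genes (1.09), interferon receptor signalling (0.40), reported ISG15 targets (0.37) and ISG15/USP18 partners (0.20). The targets reach 4.73, above every member.

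The genes of ubiquitin and related modifiers centred near no difference. Of 16 such genes 15 were detected, with a median of -0.11, and 11 of the 15 had a negative difference. The ubiquitin gene Ubb differed by -0.11, and Nedd8, whose product modifies cullins, by -0.32. Ubd, which encodes the interferon-inducible modifier FAT10, was below both floors, at 5.62 in the knockout and 7.99 in the wild type.

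Genes of the receptor pathway that USP18 restrains differed most in the transcription factors downstream. Ifnar2, to whose product USP18 binds, read 13.85 in the knockout and 13.75 in the wild type, and Ifnar1 differed by -0.10. Of 10 detected genes of this list 3 passed 2-fold, each of them higher, where 5.53% of all detected genes were, and the median was 0.40. They include Stat2, which read 14.44 in the knockout and 11.66 in the wild type, and Irf7, detected in the knockout alone. STAT2 carries the interferon signal to ISRE sites, and IRF7 amplifies it. Irf7 was at least 7.64-fold higher. Its 2 rows differed by 3.31 and 1.16 as measured, the 3.31 against a wild-type value of 8.73, below the floor. Irf9, whose product binds these sites together with STAT2, differed by 0.46.

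Several genes whose proteins are reported to carry ISG15 were higher as well. Of 17 detected genes in this list, 7 passed 2-fold, each of them higher, where 5.53% of all detected genes were, and the median was 0.37. They include Ifit1 (26.6-fold), Mx1 (23.6-fold), Ddx58 (14.8-fold) and Eif2ak2 (8.62-fold), which are themselves induced by interferon, and Hif1a (3.56-fold) and Chmp5 (2.14-fold). Of the integrin chains that form the receptor for free ISG15, Itgal was 2.24-fold higher and Itgb2 differed by 0.20. Skp2, which targets USP18 for breakdown, differed by -0.59.

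The chromosomal surroundings of the 4 genes were read on the same arrays. Within 100 kb there were 57 rows of 32 other genes, of which 21 rows were above the floor on either array, 1 at least 2-fold higher and 0 at least 2-fold lower. Among all detected gene rows 6.11% were higher and 3.81% lower, so 1 in 21 is near the background. That row belongs to AW011738, from -4.36 to -2.51 kb relative to the first base of Isg15. It read 11.81 in the knockout and 10.22 in the wild type, 3.01-fold higher, and the second AW011738 row was below both floors. A row of Inka1, which begins 186 bases after the end of Uba7, read 9.45 in the knockout and 6.78 in the wild type. The gap is 2.67, but the wild-type value is below its floor and the bound is 1.27-fold.

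At the end of Herc6, a row annotated to Pyurf overlaps 10102 bases of the predicted Herc6 transcript and 8262 bases of the row with the 35.8-fold difference. It read 9.76 in the knockout and 5.22 in the wild type, a gap of 4.54 with a bound of 1.57-fold, and was seen in the knockout alone. The second Pyurf row, which begins past the end of Herc6, had a gap just under 2-fold and a bound of 1.13-fold. Strand and probe positions of these rows were not analysed, so signal of Herc6 and of the overlapping row cannot be told apart. Around Ube2l6, the complement inhibitor gene Serping1, known to respond to interferon, read 14.16 in the knockout and 14.05 in the wild type.

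**Figure D4:**
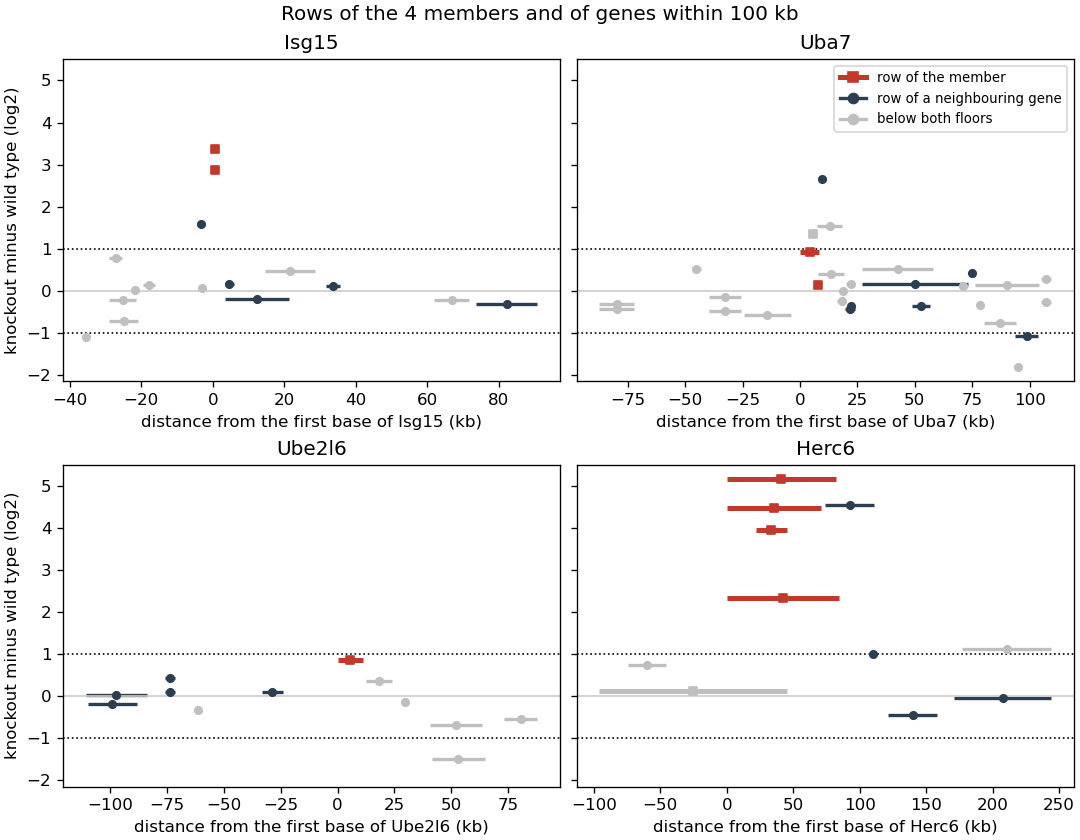
Difference in log2 intensity, knockout minus wild type (vertical), of every row of the 4 members (red squares) and of genes within 100 kb (dark points), drawn over the span of each row in kb from the first base of the member, with grey for rows below both floors. Around Herc6 the detected member rows run from 2.34 to 5.16, 1 row below both floors lies at 0.13, and the overlapping Pyurf row lies at 4.54, while the other detected neighbours stay under 2-fold.

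Markers of other marrow cells differed between the same 2 samples, and in bulk samples fewer cells of a type and less RNA per cell cannot be told apart. In all, 5.53% of detected genes passed 2-fold upward and 4.06% downward, and sums are over all measured genes of a list. Of 19 neutrophil genes 18 were detected and 4 were at least 2-fold higher, and their summed intensity was 353881 in the knockout and 254646 in the wild type. Of 15 monocyte and macrophage genes all were detected on at least 1 array and 4 were at least 2-fold higher, with sums of 140742 in the knockout and 97065 in the wild type. The list was mixed, with 11 positive and 4 negative differences. Ctss was 2.86-fold and Mpeg1 2.65-fold higher, while Lyz2 differed by 0.05, Cd68 by -0.29, C1qb by -0.42 and Cd14 by -0.44. B lineage genes summed to 5591 in the knockout and 26061 in the wild type, and 8 of 11 detected were at least 2-fold lower, with Pax5 below the floor in the knockout. Of 14 erythroid genes 12 were detected, all 12 with a negative difference and 5 at least 2-fold lower. The erythroid sums were 93760 in the knockout and 138000 in the wild type. Plasmacytoid dendritic cell genes, of a cell type known for interferon production, summed to 10564 in the knockout and 9438 in the wild type. Of their defining markers Siglech was above the floor in the knockout alone, Bst2 differed by 0.31, and Ccr9 and Ly6d were below both floors. No marker is listed at 0, since RMA gives every row a positive value. The part of these cells in the differences of the 4 genes was not tested.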

How the data were processed

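Cy3-labelled cDNA, primed with oligo dT on total RNA per the labels' protocols, was measured on 1 array per genotype. The values as deposited are linear intensities, summarised by RMA per the submitters' processing notes, with no version given, and 44155 of 44170 rows come from 3 probes. Coordinates are those of the MM9 assembly per the file headers and annotation. The series-wide table held the same values, with medians of 271 for the knockout and 273 for the wild type, and differed by at most 1.28e-06 on the log2 scale. Its scale and direction thus match, and it was not centred.

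Here log2 was taken with no further normalization. Of 41886 rows with a gene ID, 39057 were matched by ID to a RefSeq table of GRCm38.p6, used for symbols. Calculations used pandas 2.3.3 and, for loess, statsmodels 0.14.6, with the calling rule tested on simulated data. The shifted genes in those data lay well above the wild-type floor, so values near it, as for Isg15, were not covered. The number of arrays limits the precision. Without replicates there is no test, and 2-fold is a size, not a call of significance. The members, lists and rules were chosen with earlier results of these data known. Genes named are all members, their 2 nearest in rank on each side, list genes past 2-fold and a fixed set of pathway genes. Some genes that this rule names are not reported here. Any other gene was picked with its values in view. The settings varied were other floors, rows, folds, loess centring and the series-wide table.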

Additional observations from a re-analysis of the deposited data

How the results depend on the processing

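Of 40 alternative values for the 4 members, all 40 were positive and 33 stayed within 0.37, the SD between rows of a gene, of the value reported. Many of the 33 could not have moved. The floor settings keep the chosen row and can only turn its difference into a bound. The series-wide table holds the same values, and row choice cannot change Ube2l6. For Isg15 the dimmer row gave 3.38, and the floor at the 99th percentile of receptor rows gave a bound of 2.07. For Uba7 the median of all rows and the dimmer detected row both gave 0.14, and the mean of the detected rows, added after seeing the data, gave 0.53. For Herc6 the mean of all rows gave 3.21 and the dimmest detected row 2.34. Ube2l6 has 1 row and ran from 0.87 to 0.89. The number of members at least 2-fold higher was 2 under each row, floor, loess and table alternative and at folds of 3 and 4, and 4 at a fold of 1.5. Member rows at least 2-fold higher numbered 6 to 8.

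Over all genes, 601 passed 2-fold upward and 441 downward. With no floor these were 1411 higher and 1435 lower, and with rows averaged 509 higher and 238 lower, a share of higher calls of 68.1% in place of 57.7%. With the median of rows, 254 were lower. For the related lists 40 of 40 medians stayed within 0.37, and 8 of 80 counts moved by more than 1.5 times, each by 1 gene. That width is a spread between rows of a gene and is wide for the median of a list. With rows averaged, the median went from -0.10 to 0.25 for the Usp family and from -0.07 to 0.15 for other activating enzymes. It went from 0.20 to 0.54 for the ISG15 and USP18 partners, and from 0.04 to -0.08 for the other ISG15 proteases. No paired analysis was possible because each genotype has 1 array, and for the same reason no replicate could be left out. Isg15 in the wild type lay at the floor, which limits its fold.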

Other observations

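The ISRE core found in the Isg15 window was looked at across all genes, after the values of the members had been seen. Among 320 detected genes (floor passed on at least 1 array) with a core in an annotated promoter, 75, or 23.4%, passed 2-fold upward in the knockout. Of 7303 such genes without a core, 389, or 5.33%, did. Isg15 itself is among the 75. Detected genes without an annotated promoter are left out, so these shares are not over the 10859 genes used elsewhere. Median differences were 0.24 with a core and -0.02 without one. The shorter IRF element gave 11.1% of 1722 genes with it and 4.61% of 5901 without it. The motifs share letters, and these shares describe 2 samples with no test. Ube2l6, Uba7 and Herc6 are among the genes without a core in this window.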
